A study of Mus musculus with 2 samples.

Results

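The genes of insulin-like growth factor 1, its receptors and its binding proteins were described in optic nerve RNA of mice at postnatal day 12. They are Igf1, the receptor genes Igf1r, Igf2r and Insr, and the binding protein genes Igfbp2 to Igfbp7. The 10 genes were picked by symbol from 23950 symbols, and each had 1 entry. The library labelled cKO came from Hdac3f/f; Olig1-cre animals and the library labelled control from Hdac3f/+; Olig1-cre animals, both of mixed strain. Both groups carry Olig1-cre, a recombinase driven from the Olig1 gene, which acts in the oligodendrocyte lineage, and the control group carries 1 floxed Hdac3 allele. RNA came from the whole nerve, so cells that the recombinase does not reach are in the sample. Each group is 1 library with no replicate, its number of animals not given in the sources used here.

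IGF1 and IGF2 are secreted growth factors that signal through the tyrosine kinase receptor IGF1R, and insulin signals through the related receptor INSR. IGF2R takes IGF2 into the cell for breakdown, and the binding proteins carry IGFs in tissue fluid, where they can hold them back from receptors or keep them near cells. In white matter IGF1 is known to favour the survival of oligodendrocytes and the growth of myelin, and microglia are a known source of it in the developing mouse brain. HDAC3 is a histone deacetylase, and the study asks how it acts in the choice between oligodendrocytes and astrocytes.

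Igf1 and 4 of 6 binding protein genes were at least 2-fold higher in cKO-labelled nerves, on the log2(FPKM + 1) scale, with deposited intervals that did not overlap. FPKM is a fragment count scaled by transcript length and by the fragment total. The largest difference among them was that of Igfbp6 and the smallest that of Igfbp5. None of the 10 genes was lower by this rule, and the receptor genes lay closer to the median of all symbols, which was 0.12. Of 14154 symbols compared in the same way, 4.73% were higher and 4.51% lower, and 61.4% had a difference above 0. With 1 library a group there was no test and no p-value, and every difference describes these libraries. In whole-nerve RNA, fewer cells of a type and less RNA per cell cannot be told apart.

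The promoters of the genes that met the rule are shown because these genes were higher together. Each is the 250 bases before the start site that RefSeq lists on GRCm38.p6 (for Igfbp2, the outer of 2 starts), written 5′ to 3′ on the gene's strand. For Igf1 only 1 window is listed, though its deposited entry has 2 groups of start sites. Capitals mark matches on either strand to any of 4 motifs. TATAAA is the core of the TATA box. CCAAT is the letter run that nuclear factor Y binds. GGGCGG is the GC box that SP1 binds. CACGTG is the E-box of MYC and its relatives.
Igf1, chr10:87860861-87861110, plus strand: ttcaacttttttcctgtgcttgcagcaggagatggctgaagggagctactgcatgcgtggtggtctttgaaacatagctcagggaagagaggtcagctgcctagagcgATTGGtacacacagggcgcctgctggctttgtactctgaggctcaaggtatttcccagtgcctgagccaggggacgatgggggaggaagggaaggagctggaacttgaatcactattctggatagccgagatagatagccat
Igfbp2, chr1:72824230-72824479, plus strand: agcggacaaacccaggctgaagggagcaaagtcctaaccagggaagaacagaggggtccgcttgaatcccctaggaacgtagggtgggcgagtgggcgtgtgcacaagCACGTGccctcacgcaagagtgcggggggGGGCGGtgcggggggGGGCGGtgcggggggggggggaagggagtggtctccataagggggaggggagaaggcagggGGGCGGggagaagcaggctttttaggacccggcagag
Igfbp4, chr11:99040994-99041243, plus strand: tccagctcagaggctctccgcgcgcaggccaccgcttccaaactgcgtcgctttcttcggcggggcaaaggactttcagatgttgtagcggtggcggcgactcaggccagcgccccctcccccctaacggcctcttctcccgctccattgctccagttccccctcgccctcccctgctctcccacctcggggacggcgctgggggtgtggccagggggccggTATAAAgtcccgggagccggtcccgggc
Igfbp5, chr1:72874866-72875115, minus strand: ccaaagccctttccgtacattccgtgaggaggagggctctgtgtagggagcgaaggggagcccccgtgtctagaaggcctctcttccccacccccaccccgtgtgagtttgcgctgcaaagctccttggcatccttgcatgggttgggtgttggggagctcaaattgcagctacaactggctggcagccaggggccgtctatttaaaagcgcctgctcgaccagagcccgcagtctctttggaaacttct
Igfbp6, chr15:102143936-102144185, plus strand: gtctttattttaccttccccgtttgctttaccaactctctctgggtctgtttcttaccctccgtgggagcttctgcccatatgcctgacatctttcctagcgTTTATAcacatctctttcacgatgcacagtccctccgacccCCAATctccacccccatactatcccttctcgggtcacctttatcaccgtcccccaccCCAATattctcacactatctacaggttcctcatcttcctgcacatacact

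No motif was shared by all of these promoters. TATAAA began 28 bases before the start of Igfbp4, and 12.4% of 32851 listed windows of this length hold it. Igfbp6 had it on the opposite strand, beginning 148 bases before the start, and also had CCAAT in 2 places. CCAAT was found once in Igf1, on the opposite strand, and in 33.8% of all windows. Igfbp2 held GGGCGG in 3 places, against 32.7% of windows with at least 1, and CACGTG in 1 place, against 6.02% of windows. The Igfbp5 and Igfbp3 windows held none of the motifs. The windows of Igf1r, Igf2r and Igfbp7 also held GGGCGG, 2, 3 and 4 times, and that of Igf2r, which did not meet the rule, held CACGTG in 2 places. The share of G and C was 67.2% in Igfbp2, 69.2% in Igfbp4 and 58.8% in Igfbp5, and it was 52.8% in Igf1 and 49.6% in Igfbp6. The median over all windows was 52.4%. Windows were listed for 9 of the 10 genes. No overlap among matches occurred in the windows printed.

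The libraries differed in scale and depth. Hdac3 itself was at 38.0 FPKM in cKO-labelled nerves and 36.4 FPKM in control-labelled nerves, a log2 difference of 0.06, so the whole-gene level does not check the labels. Summed FPKM over all symbols was 553903 in cKO-labelled nerves and 439258 in control-labelled nerves, and symbols of small RNAs made up 25.3% of it in cKO-labelled nerves and 11.5% in control-labelled nerves. Among 1064 entries with FPKM between 0.003 and 0.08 in both libraries, the commonest cKO over control ratios were 0.316, 0.632 and 0.948, with 128, 103 and 83 entries within 0.3%. These are steps of 1 quantity, as whole fragments would give, so 1 fragment is worth 3.16 times as much FPKM in control-labelled nerves. If FPKM was scaled by each library's own total, the cKO-labelled library is the deeper one by that factor, and total fragment numbers are unknown. The median log2 difference of all symbols was 0.12 with the deposited FPKM. It was 0.05 with upper-quartile scaling, which sets both libraries to 1 upper quartile, and -0.16 with equal-sum scaling, which sets them to 1 FPKM total. Of the symbols that met the rule, 51.2% were higher on the deposited scale (669 higher, 638 lower). The share was 36.6% with median centring (439 higher, 761 lower) and 18.3% with equal-sum scaling (215 higher, 960 lower).

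Igf1, the ligand gene (chromosome 10, 87321801 to 87399792, mm9), was at 8.80 FPKM in cKO-labelled nerves and 3.61 FPKM in control-labelled nerves. The deposited interval was 8.37 to 9.23 in cKO-labelled nerves and 3.30 to 3.93 in control-labelled nerves, well apart. The log2 difference was 1.09, above that of 95.5% of symbols compared, and the ratio of FPKM values was 2.44. Igf1 has 2 groups of start sites in the deposited table, and the values do not show which of them were used. Its difference was 0.97 with median centring and 0.79 with equal-sum scaling, both short of 2-fold. With a pseudocount of 5 FPKM, which shrinks the differences of low genes most, it was 0.68.

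**Figure D1:**
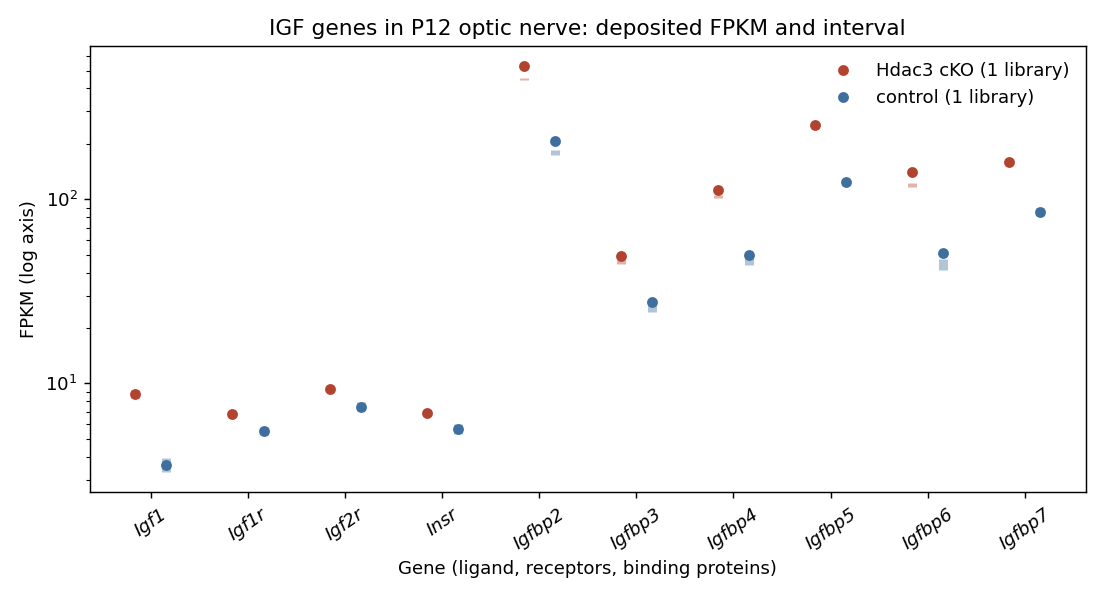
FPKM of the 10 genes in the cKO-labelled library (red, left of each pair) and the control-labelled library (blue, right), 1 library each, on a log axis. Pale bars are the deposited intervals, which lie below the point for 5 binding proteins, and binding protein genes sit far above Igf1 and the receptor genes in both libraries.

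The receptor genes had small differences. Igf1r, the IGF1 receptor (chromosome 7, 75097143 to 75378553), was at 6.84 FPKM in cKO-labelled nerves and 5.53 FPKM in control-labelled nerves, a log2 difference of 0.26. For Insr, the insulin receptor (chromosome 8, 3150922 to 3279617), the levels were 6.92 FPKM in cKO-labelled nerves and 5.66 FPKM in control-labelled nerves, a log2 difference of 0.25. Igf2r, which clears IGF2 (chromosome 17, 12875272 to 12962572), was at 9.35 FPKM in cKO-labelled nerves and 7.49 FPKM in control-labelled nerves, a log2 difference of 0.29. The intervals of the libraries did not overlap for any of these receptors, but the sign of the differences depended on scaling. With equal-sum scaling they were -0.02 for Igf1r, -0.04 for Insr and -0.01 for Igf2r. Airn, a non-coding RNA gene on the opposite strand, overlaps the Igf2r locus and was at 5.49 FPKM in cKO-labelled nerves and 3.57 FPKM in control-labelled nerves. Use of strand in counting, not given in the sources used here, decides whether their reads were kept apart, and Igf2r is uncertain to that extent. The ratio of Igf1r to Insr was 0.988 in cKO-labelled nerves and 0.978 in control-labelled nerves. That of Igf1 to Igf1r was 1.29 in cKO-labelled nerves and 0.653 in control-labelled nerves, and such ratios of levels do not depend on scaling.

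Igfbp2, a binding protein made by glia and meninges (chromosome 1, 72871054 to 72899045), had the highest level of the 10 genes. It was at 528 FPKM in cKO-labelled nerves and 208 FPKM in control-labelled nerves, a log2 difference of 1.34. Its neighbour Igfbp5, whose product binds extracellular matrix (chromosome 1, 72904639 to 72921439), was at 254 FPKM in cKO-labelled nerves and 124 FPKM in control-labelled nerves, a log2 difference of 1.02. The loci of this pair are 5593 bases apart, lie tail to tail, and have no other entry between them. Igfbp5 is just past 2-fold. Its difference was 0.94 with upper-quartile scaling, 0.93 with equal-sum scaling that left out small RNAs, 0.90 with median centring and 0.69 with equal-sum scaling.

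Igfbp6, which prefers IGF2 over IGF1 (chromosome 15, 101974617 to 101979943), was at 141 FPKM in cKO-labelled nerves and 51.3 FPKM in control-labelled nerves. Its log2 difference of 1.45 lay above that of 98.2% of symbols. Igfbp4, a carrier that holds IGF back from its receptor until it is cleaved (chromosome 11, 98902574 to 98913957), was at 113 FPKM in cKO-labelled nerves and 50.1 FPKM in control-labelled nerves, a log2 difference of 1.16. With equal-sum scaling Igfbp4 was at 0.83, short of 2-fold, while Igfbp6 at 1.11 and Igfbp2, just at the limit, still met the rule. Under that scaling 2 of the 10 genes were higher, against 1.52% of all symbols.

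Igfbp7 and Igfbp3 did not reach 2-fold. For Igfbp7, a low-affinity binding protein known from blood vessels (chromosome 5, 77778265 to 77837070), levels were 159 FPKM in cKO-labelled nerves and 85.3 FPKM in control-labelled nerves, a log2 difference of 0.89. Its locus shares its edge with Polr2b, a subunit of RNA polymerase II, which was at 20.4 FPKM in cKO-labelled nerves and 18.8 FPKM in control-labelled nerves. Igfbp3, the main carrier of IGF1 in blood (chromosome 11, 7106096 to 7113926), was at 49.5 FPKM in cKO-labelled nerves and 27.7 FPKM in control-labelled nerves, a log2 difference of 0.82. At a limit of 1.5-fold both were higher, so that 7 of the 10 genes were, against 16.0% of all symbols higher and 8.85% lower at that limit. Igfbp1, which lies tail to tail with Igfbp3 at a distance of 3546 bases, was at 0.0782 FPKM in cKO-labelled nerves and 0.110 FPKM in control-labelled nerves, below the minimum for comparison.

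**Figure D2:**
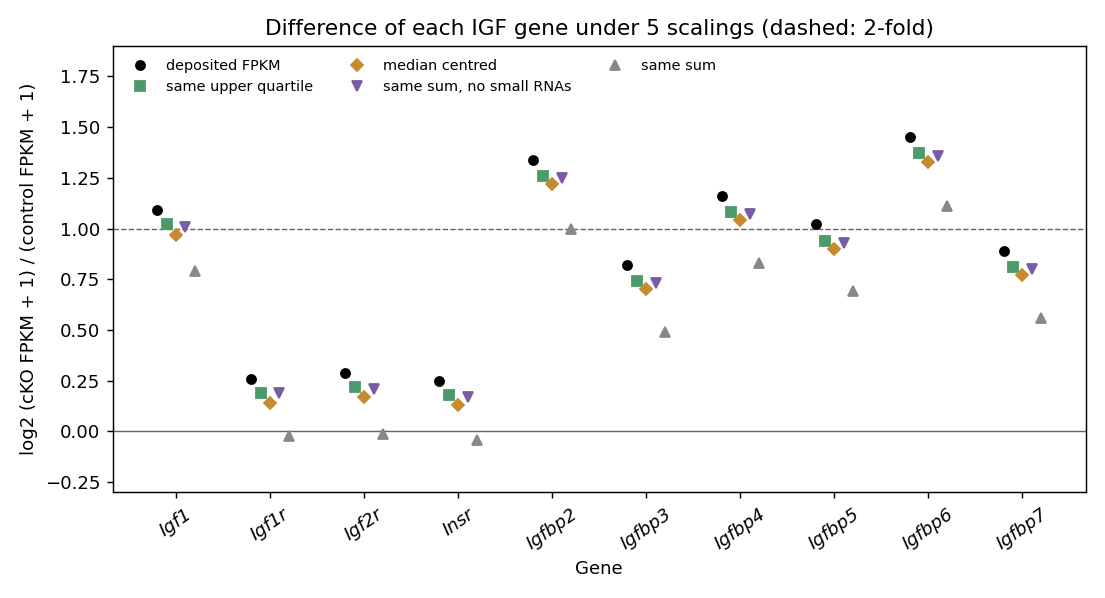
The log2 difference, cKO over control, of each of the 10 genes with the deposited FPKM and under 4 other scalings, with the dashed line at 2-fold. Igf1 and the binding proteins stay above 0 under each scaling shown, and the receptors lie between -0.04 and -0.01 with equal-sum scaling.

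The order of levels was alike in the libraries for binding proteins. It ran Igfbp2, Igfbp5, Igfbp7, Igfbp6, Igfbp4 and Igfbp3, from high to low, in both. In the control-labelled library the intervals of Igfbp6 and Igfbp4 overlapped, so their order there is not resolved. Below them Igf1 ranked above Insr and Igf1r in cKO-labelled nerves and below both in control-labelled nerves. Igf2r was above Igf1 in both, with overlapping intervals in cKO-labelled nerves, and the intervals of Insr and Igf1r overlapped in both. The FPKM of 5 binding proteins lay above its own deposited interval in each library, Igfbp7 being the exception. For Igfbp2 the interval was 443 to 453 in cKO-labelled nerves and 173 to 186 in control-labelled nerves, so neither interval holds its own value. The bounds of the intervals give ratios of 2.39 to 2.62 for Igfbp2 and 1.97 to 2.08 for Igfbp5.

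As a pool, the binding protein genes summed to 1244 FPKM in cKO-labelled nerves and 547 FPKM in control-labelled nerves, a ratio of 2.27. The receptor genes summed to 23.1 FPKM in cKO-labelled nerves and 18.7 FPKM in control-labelled nerves, a ratio of 1.24. The binding protein sum was 53.8 times the receptor sum in cKO-labelled nerves and 29.3 times in control-labelled nerves. Within the pool, Igfbp2 took 42.4% in cKO-labelled nerves and 38.1% in control-labelled nerves, and Igfbp6 took 11.4% in cKO-labelled nerves and 9.37% in control-labelled nerves. The other shares were smaller or alike in cKO-labelled nerves. Igfbp5 took 20.4% in cKO-labelled nerves and 22.7% in control-labelled nerves, and Igfbp7 took 12.8% in cKO-labelled nerves and 15.6% in control-labelled nerves. Igfbp3 took 3.98% in cKO-labelled nerves and 5.06% in control-labelled nerves. The share of Igfbp4 was 9.10% in cKO-labelled nerves and 9.16% in control-labelled nerves. These shares do not depend on scaling, and their log2 shift lay between -0.35 for Igfbp3 and 0.28 for Igfbp6.

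**Figure D3:**
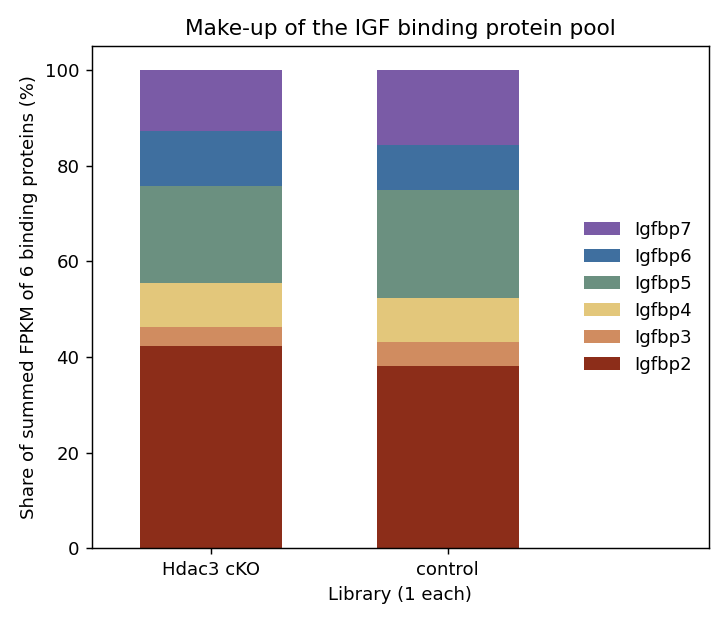
Share of each binding protein gene in the summed FPKM of all 6, in percent, for the cKO-labelled library (left) and the control-labelled library (right), 1 library each. Igfbp2 is the largest part in both, at 42.4% in cKO-labelled nerves and 38.1% in control-labelled nerves, and the make-up is similar although the sum is 2.27 times as high in cKO-labelled nerves.

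Markers of the cell types that could be the source of these RNAs were set beside the IGF genes. Meningeal fibroblast markers were higher along with the binding proteins. Of 11, 9 were higher and 0 lower, against 4.73% and 4.51% of all symbols. Their median log2 difference was 1.26, and their summed FPKM was 4041 in cKO-labelled nerves and 1697 in control-labelled nerves. Dcn, a matrix proteoglycan of fibroblasts, was at 429 FPKM in cKO-labelled nerves and 138 FPKM in control-labelled nerves. Relative to the summed fibroblast markers, Igf1 was at 0.218% in cKO-labelled nerves and 0.213% in control-labelled nerves, a ratio of 1.02. The same ratio was 1.06 for Igfbp2, 1.16 for Igfbp6, 0.948 for Igfbp4 and 0.855 for Igfbp5, and it was 0.781 for Igfbp7 and 0.751 for Igfbp3. For the receptors it lay between 0.513 for Insr and 0.524 for Igf2r. The part of these cells in the difference of the IGF genes was not tested.

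The log2 differences of 12 markers of microglia and macrophages lay between -0.19 and 0.83, against 1.09 for Igf1. By the rule 0 of them were higher or lower, against 4.73% and 4.51% of all symbols. At 1.5-fold 6 were higher (50.0%, against 16.0% of all symbols) and 0 lower. Other lists moved at that limit too, with 10 of 11 fibroblast, 7 of 10 mural cell, 7 of 11 astrocyte and 4 of 10 endothelial markers higher. Lower at 1.5-fold were 10 of 10 oligodendrocyte and 4 of 7 precursor markers, against 8.85% of all symbols. The median of the microglia and macrophage markers was 0.51, with sums of 660.4 FPKM in cKO-labelled nerves and 447 FPKM in control-labelled nerves. Set against that sum, the level of Igf1 was 1.65 times as high in cKO-labelled nerves. C1qb, a complement subunit made by microglia, was at 125 FPKM in cKO-labelled nerves and 69.8 FPKM in control-labelled nerves. Of the genes that mark microglia of developing white matter, Spp1 was higher, at 30.1 FPKM in cKO-labelled nerves and 12.7 FPKM in control-labelled nerves, and its log2 difference of 1.19 was above that of Igf1. Itgax, which marks IGF1-producing microglia in the young mouse brain, was at 0.463 FPKM in cKO-labelled nerves and 0.531 FPKM in control-labelled nerves, below the minimum for comparison. The other 4 of these 6 genes did not meet the rule. The list median was 0.44, and its sum was 4462 FPKM in cKO-labelled nerves and 3174 FPKM in control-labelled nerves, nearly all of it Apoe, a lipid carrier that astrocytes also make. Without Apoe, a choice made after seeing the data, the sum was 41.6 FPKM in cKO-labelled nerves and 21.4 FPKM in control-labelled nerves, a ratio of 1.94 against 1.41 with it. Spp1 alone made up most of that remaining sum in both libraries, so the ratio mainly reflects this gene. The log2 differences of Lpl, Clec7a and Gpnmb were 0.44, 0.35 and 0.07.

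Among the other cell types, 2 of 10 mural cell markers were higher and their median log2 difference was 0.85, with sums of 547 FPKM in cKO-labelled nerves and 303 FPKM in control-labelled nerves. Set against that sum, the binding proteins ranged from 0.992 for Igfbp3 and 1.03 for Igfbp7 to 1.40 for Igfbp2 and 1.53 for Igfbp6, with Igf1 at 1.35. For 10 endothelial markers the median was 0.43 and 0 met the rule, with sums of 239 FPKM in cKO-labelled nerves and 175 FPKM in control-labelled nerves. Against that sum they ranged from 1.31 for Igfbp3 and 1.36 for Igfbp7 to 2.02 for Igfbp6, with Igf1 at 1.78. Of 11 astrocyte markers 3 were higher, with a median of 0.74 and sums of 2478 FPKM in cKO-labelled nerves and 1439 FPKM in control-labelled nerves. Here the range was from 1.04 for Igfbp3 and 1.08 for Igfbp7 to 1.47 for Igfbp2 and 1.60 for Igfbp6, with Igf1 at 1.41. All 10 oligodendrocyte markers were lower, with a median of -2.63 and sums of 3869 FPKM in cKO-labelled nerves and 28424 FPKM in control-labelled nerves. Of 7 precursor markers 3 were lower, with a median of -0.67 and sums of 139 FPKM in cKO-labelled nerves and 181 FPKM in control-labelled nerves. Of 8 neuron and axon markers 2 were higher, with a median of 0.31 and sums of 72.4 FPKM in cKO-labelled nerves and 45.8 FPKM in control-labelled nerves. With equal-sum scaling 5 of 11 fibroblast markers were higher, against 1.52% of all symbols. The median in that scaling was 0.93 for fibroblast markers, 0.53 for mural cells and 0.40 for astrocytes. For microglia and macrophages the median was 0.20, for developing microglia 0.15 and for endothelium 0.12. It was 0.09 for neurons, -0.99 for precursors and -2.96 for oligodendrocytes, and the neuron median was 0.71 with a minimum of 5 FPKM. No marker of the 9 lists was listed at 0, and the part of each of these cell types was not tested.

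**Figure D4:**
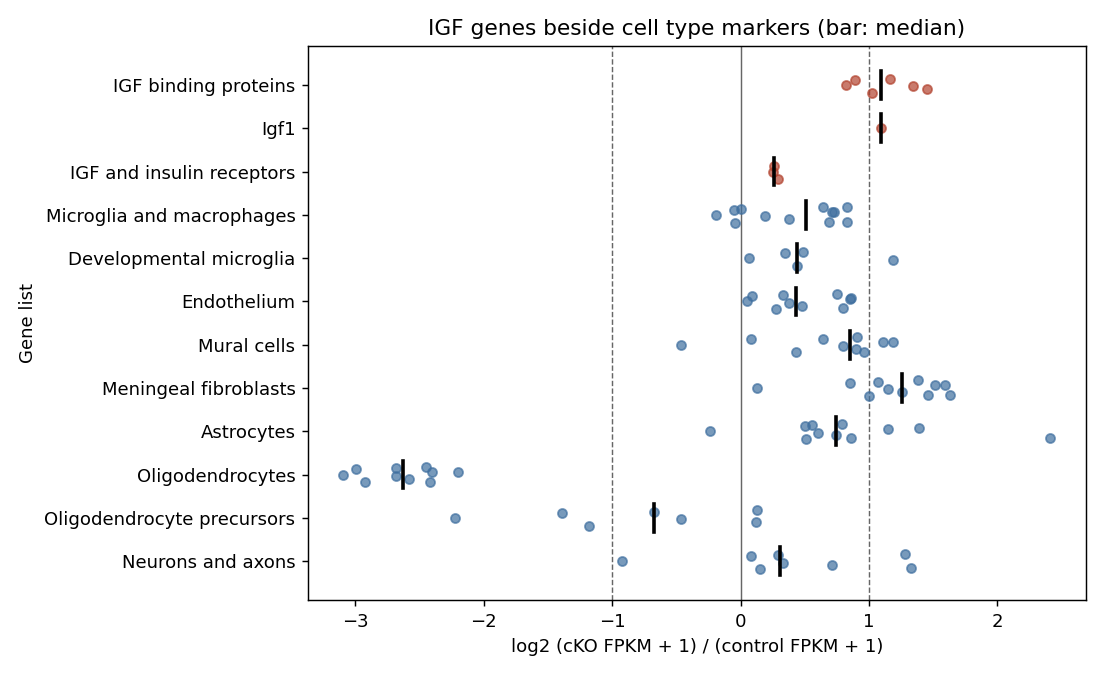
The log2 difference, cKO over control, of each compared gene (points) with the median (bar) for the IGF genes in red and for cell type marker lists in blue, dashed lines at 2-fold. The binding proteins and Igf1 lie within the range of meningeal fibroblast markers (median 1.26). They lie within that of astrocyte markers (median 0.74) only because of 1 gene, Itih3 at 2.41. The next astrocyte marker, Gjb6 at 1.39, is below Igfbp6 at 1.45. Oligodendrocyte markers lie far to the left (median -2.63).

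Other genes of the pathway were counted from 12 lists of 100 genes, of which 82 could be compared. Of these, 11 were higher (13.4%, against 4.73% of all symbols) and 3 lower (3.66%, against 4.51%). With equal-sum scaling the balance turned, to 2 higher (2.44%, against 1.52% of all symbols) and 6 lower (7.32%, against 6.78%). It did not turn with the other scalings. With small RNAs left out of that sum, 9 were higher (11.0%) and 4 lower (4.88%), against 511 and 704 of 14154 symbols. Upper-quartile scaling also gave 9 and 4, and median centring gave 8 and 4. The median log2 difference was 0.15, against 0.12 over all symbols, and -0.15 against -0.16 with equal-sum scaling. All of the higher genes but Grb10 and Eif4ebp1 encode secreted or cell surface proteins. Igf2, the other IGF ligand, was at 1665 FPKM in cKO-labelled nerves and 679 FPKM in control-labelled nerves, a log2 difference of 1.29. Its level was 189 times that of Igf1 in cKO-labelled nerves and 188 times in control-labelled nerves. Set against both ligands together, the binding protein sum was 0.743 in cKO-labelled nerves and 0.802 in control-labelled nerves. Ins1 was listed at 0 in both libraries.

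By list, 2 of 4 genes listed as other carriers or IGF-binding proteins were higher. So were 3 of 9 proteases and inhibitors, 2 of 4 CCN genes and 1 of 5 receptor partners, and 0 were lower. Over all symbols 4.73% were higher and 4.51% lower, so 0 lower is not unusual in lists this short. The list medians were 0.96, 0.51, 0.93 and 0.37, against 0.12 over all symbols. With equal-sum scaling 0 genes of the first list, 1 protease or inhibitor, 1 CCN gene and 0 receptor partners were higher. Over all symbols 1.52% were higher in that scaling. With small RNAs left out of the sum, the counts were 1, 3, 2 and 1. The genes of the first list that met the rule were Htra1 and Htra3, which encode proteases with an IGFBP-like domain. Htra1, a secreted serine protease, was at 65.8 FPKM in cKO-labelled nerves and 31.7 FPKM in control-labelled nerves (log2 1.03). Its relative Htra3 was at 111 FPKM in cKO-labelled nerves and 45.8 FPKM in control-labelled nerves (log2 1.26). Mmp2, a matrix metalloproteinase, was at 89.5 FPKM in cKO-labelled nerves and 32.0 FPKM in control-labelled nerves (log2 1.46). These proteases can cut binding proteins or the matrix that holds them. Timp1, which inhibits metalloproteinases, was at 26.6 FPKM in cKO-labelled nerves and 11.0 FPKM in control-labelled nerves (log2 1.20). Adamts1, another secreted protease, named after its value was seen, had a log2 difference of 1.11. Pappa and Pappa2, whose products cut IGF binding proteins, were below 1 FPKM in both libraries, Pappa at 0.202 FPKM in cKO-labelled nerves and 0.220 FPKM in control-labelled nerves. Of the CCN family, matrix proteins with an IGFBP-like domain, Nov was at 213 FPKM in cKO-labelled nerves and 72.8 FPKM in control-labelled nerves (log2 1.53). Its relative Ctgf, which acts in fibrosis, was at 124 FPKM in cKO-labelled nerves and 51.7 FPKM in control-labelled nerves (log2 1.24). Gpc3, a cell surface proteoglycan, was at 114 FPKM in cKO-labelled nerves and 45.9 FPKM in control-labelled nerves (log2 1.29).

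Genes that act inside the cell met the rule in small numbers, in both directions, with the deposited FPKM. So few genes do not set these lists apart from all symbols. Of 11 adaptor genes compared, 1 was higher and 1 lower, 9.09% each, against 4.73% and 4.51% of all symbols. With equal-sum scaling 0 were higher and 2 lower (18.2%, against 6.78% of all symbols). Grb10, an inhibitor of the IGF1 and insulin receptors, was at 32.2 FPKM in cKO-labelled nerves and 13.7 FPKM in control-labelled nerves (log2 1.17). Grb14, a relative with a similar role, was at 5.15 FPKM in cKO-labelled nerves and 20.3 FPKM in control-labelled nerves (log2 -1.79). Irs1, the docking protein below both receptors, was at 5.36 FPKM in cKO-labelled nerves and 6.46 FPKM in control-labelled nerves (log2 -0.23). Of 20 genes of the PI3K, AKT and mTOR route, 1 was higher and 1 lower (likewise 0 and 2 with equal-sum scaling). Eif4ebp1, a translation repressor controlled by mTOR, had a log2 difference of 1.06, and Pik3r3, a regulatory subunit of PI3K, was at 18.3 FPKM in cKO-labelled nerves and 48.7 FPKM in control-labelled nerves (log2 -1.36). Inppl1, a lipid phosphatase, was also lower, at 27.4 FPKM in cKO-labelled nerves and 63.7 FPKM in control-labelled nerves (log2 -1.19). None of 9 RAS and MAPK genes, 4 FoxO genes or 5 genes of the growth hormone axis met the rule with the deposited FPKM. At the shares of all symbols, 4.73% higher and 4.51% lower, such short lists can hold none. Foxo1, a transcription factor that AKT holds out of the nucleus, was at 16.4 FPKM in cKO-labelled nerves and 8.21 FPKM in control-labelled nerves (log2 0.92). Ghr, the growth hormone receptor, was at 15.1 FPKM in cKO-labelled nerves and 7.23 FPKM in control-labelled nerves (log2 0.97).

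**Figure D5:**
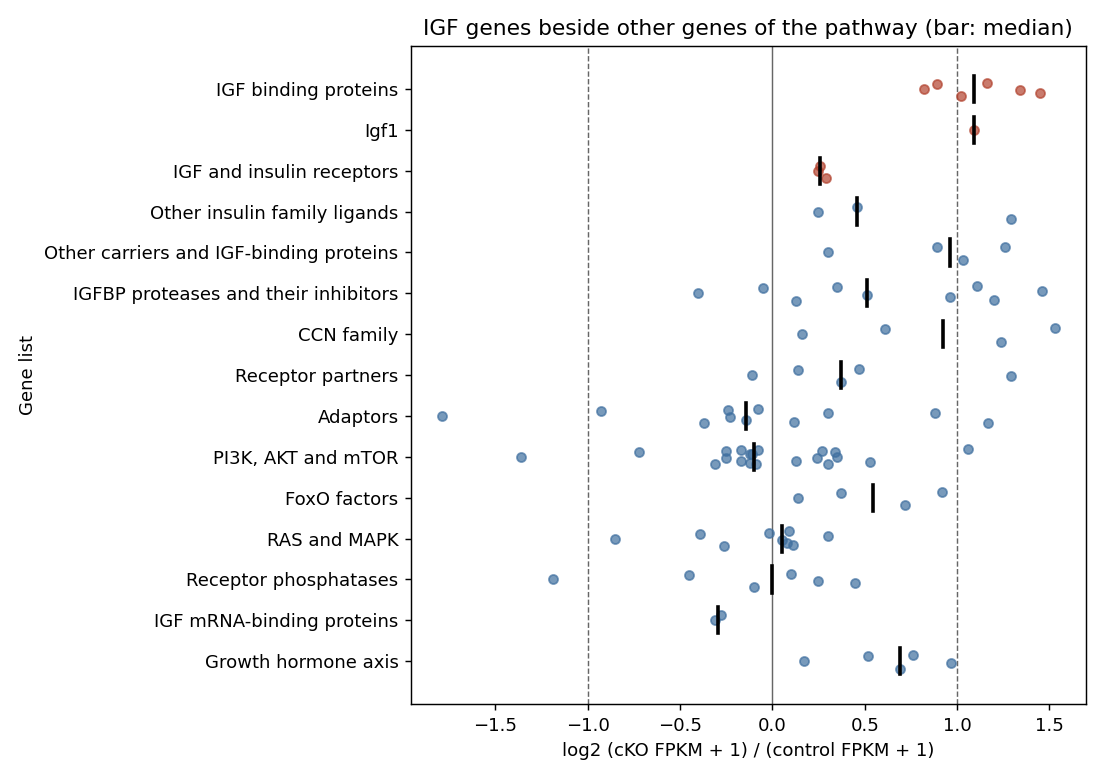
The log2 difference, cKO over control, of each compared gene (points) with the median (bar) for the IGF genes in red and for 12 lists of other pathway genes in blue, dashed lines at 2-fold. With the deposited FPKM shown, the list of other carriers and IGF-binding proteins reaches past 2-fold on the right through Htra1 and Htra3 (0 of that list with equal-sum scaling). Proteases and CCN genes also reach past 2-fold, and adaptors and PI3K genes scatter around 0 with Grb14 at -1.79.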

How the data were processed

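RNA-seq of whole optic nerve was used from 2 libraries, 1 per group. Per the labels' protocols, total RNA was taken with Trizol from frozen nerves for Illumina TruSeq libraries. Gene-level FPKM with an interval and a status is what the authors deposited. CASAVA, TopHat, Cufflinks and mm9 come from the submitters' processing notes, with versions, annotation, strand use and fragment totals not given in the sources used here. Deposited loci were turned into 1-based coordinates.

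Python 3.11.15, numpy 2.4.6, pandas 2.3.3 and matplotlib 3.10.9 were used. The 24460 entries of the libraries were joined, and each symbol kept its entry with the highest summed FPKM. Symbols with status OK in both and at least 1 FPKM in either library were compared (14154, among them all 10 IGF genes). The difference is log2 of cKO FPKM + 1 over control FPKM + 1, which understates changes of low genes. Higher or lower means at least 2-fold with separate intervals. The members and lists were chosen with earlier results of these data known. Named genes are the members, Hdac3, Igf2 and, per list, the 2 highest in mean FPKM and the 2 with the largest difference, not all of which are printed; Igfbp1, Ins1, Pappa, Pappa2, Irs1, Itgax, Airn, Polr2b and Adamts1 were added for their role, place or value. Likeness of pattern across samples was not computed with 2 libraries. Cspg4 and Pdgfra each stand in 2 marker lists.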

Additional observations from a re-analysis of the deposited data

How the results depend on the processing

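In 12 other settings Igf1 and the 6 binding proteins kept a difference above 0, while the receptors fell below 0 with equal-sum scaling. Not all of these settings could change a gene's difference. The 1.5-fold limit and the leaving out of intervals act only on which genes meet the rule. A minimum of 5 FPKM, or none, acts only on which genes are compared. Summing the entries of a symbol changed nothing here, because each of the 10 genes has 1 entry. The median of the 10 genes, 0.95, was 0.80 with a pseudocount of 5 FPKM, 0.83 with median centring and 0.62 with equal-sum scaling. The count of members higher, 5, was 3, 3 and 2 in these settings, and 0 were lower in any. Of pathway genes, 11 were higher in the report, 6 with a pseudocount of 5, 2 with equal-sum scaling and 20 at 1.5-fold. The lower count of 3 was 6 with equal-sum scaling and 6 at 1.5-fold. With small RNAs left out of the equal sum, 9 pathway genes were higher and 4 lower. Over all symbols, 669 higher and 638 lower became 282 and 339 with a pseudocount of 5, and 439 and 761 with median centring. They were 215 and 960 with equal-sum scaling, and 2262 and 1253 at 1.5-fold. With a pseudocount of 0.1 there were 1156 higher and 823 lower. A pseudocount moves low genes most by its construction, and a lower fold limit admits more genes. Scaling multiplies all cKO values by 1 factor, and median centring subtracts 1 value from all differences. The median over all symbols was -0.16 with equal-sum scaling and 0.04 with small RNAs left out of the sum. Why the libraries differ in scale was not tested. No paired analysis was possible because each group has 1 library, and no library could be left out. Without fragment totals the counting error of each value is unknown.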
